A study of Homo sapiens with 8 samples.

Results

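The genes described here are the HOX cluster genes, 38 members of the 4 clusters HOXA, HOXB, HOXC and HOXD. Every probe set was taken whose only gene symbol in the platform annotation was a member, dim probe sets included, which gave 44 probe sets for 28 genes among 54675 probe sets in all. The other 10 members (HOXA3, HOXA4, HOXA5, HOXA6, HOXA7, HOXA9, HOXA10, HOXA11, HOXA13 and HOXD3) were not analysed here. The HOXA cluster was therefore represented by HOXA2 alone, the HOXB cluster by 19 probe sets of 10 genes, the HOXC cluster by 9 probe sets of 9 genes and the HOXD cluster by 15 probe sets of 8 genes. Of the 28 genes, 13 had more than 1 probe set, and probe sets of 1 gene are not independent of each other.

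RNA had been hybridised to 8 Affymetrix HG-U133 Plus 2.0 arrays, which read each transcript with sets of short oligonucleotides. The groups were SUP-B8 cells with GSK126 at 0.5 uM, SUP-B8 cells with DMSO, NALM-6 cells with GSK126 at 0.5 uM and NALM-6 cells with DMSO, each kept for 72 hours and each with 2 arrays that the labels call biological replicates. GSK126 inhibits EZH2, the enzyme of Polycomb repressive complex PRC2 that methylates a lysine of histone H3, and DMSO is its solvent. Both are established human lines described as acute lymphoblastic leukaemia, so each line stands for 1 leukaemia, and the labels assign an EZH2 genotype to neither.

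HOX genes encode homeodomain transcription factors that set position along the body axis, and they lie in clusters in the order in which they act, from anterior to posterior genes. Polycomb complexes keep the clusters silent outside their proper tissue, and complexes built on KMT2A keep them active. In blood, HOX factors act with PBX and MEIS partners in stem and progenitor cells, and HOXA genes with MEIS1 mark leukaemias with KMT2A rearrangements.

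The arrays could be compared with each other and grouped by line label. DNTT, the gene below that bears on which line is which, went against the labels. Array medians of all probe sets lay between 7.18 and 7.24 on the log2 scale, and replicates correlated at r = 0.9977 to 0.9982 over probe sets, against 0.920 to 0.929 between lines. Of 15 probe sets for the B-lineage genes CD79A, CD79B, PAX5, EBF1 and CD22, 11 lay above the median on all 8 arrays. So did 5 of 7 erythroid, 3 of 6 T-cell and 0 of 7 myeloid probe sets, so this count alone does not mark the lineage. The levels did differ. A probe set's mean lay a median of 4.26 above the array median for B-lineage genes, against 0.42 for erythroid and 0.07 for T-cell genes. DNTT, the terminal transferase of immature lymphocytes, had log2 signals of 13.50 to 13.76 (probe set 1566363_at) on arrays labelled SUP-B8 and of 6.56 to 6.89 on arrays labelled NALM-6, below their medians. NALM-6 is commonly described as a line that expresses this enzyme, so SUP-B8 and NALM-6 stand below for the arrays carrying those labels, as do all directions between them. EZH2 itself had signals of 11.13 to 11.28 on SUP-B8 arrays and of 11.17 to 11.25 on NALM-6 arrays.

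Promoter windows were looked up because cluster genes are classic Polycomb targets and such targets are usually rich in CpG dinucleotides. The RefSeq promoter table (GRCh38.p14, 250 bases before to 50 after the start) held 20 of the 38 members, 11 of them with a probe set. These 20 windows had a median of 22.5 CpG dinucleotides, against 14 over all 27305 windows, at nearly the same GC content (58.0% against 58.3%). For the 11 with a probe set the median was 19, with the window shared by HOXC4 and HOXC5 counted for each. The motif TGATNNAT, which HOX and PBX proteins bind together, was searched on both strands. It stood in 3 of the 20 windows (15%; HOXA2, HOXB1 and HOXD11), against 7.60% of all windows. Shown here are the window that HOXC4 and HOXC5 share and those of HOXB1 and HOXD1, the other members with a window among the brighter probe sets. Only 1 window per gene was used, and the probe sets were not tied to the start in it. The window of MEIS2, the HOX partner with the clearest contrast between the lines, follows them. Capitals mark CpG dinucleotides, of which the windows hold 15, 11, 36 and 35 in the order printed. The HOXC4 and HOXC5 window is chr12:54016638-54016937 on the plus strand, that of HOXB1 is chr17:48530962-48531261 on the minus strand, that of HOXD1 is chr2:176188418-176188717 on the plus strand and that of MEIS2 is chr15:37099057-37099356 on the minus strand. The HOXB1 window held 1 match to TGATNNAT and the other 3 held 0.
HOXC4 and HOXC5: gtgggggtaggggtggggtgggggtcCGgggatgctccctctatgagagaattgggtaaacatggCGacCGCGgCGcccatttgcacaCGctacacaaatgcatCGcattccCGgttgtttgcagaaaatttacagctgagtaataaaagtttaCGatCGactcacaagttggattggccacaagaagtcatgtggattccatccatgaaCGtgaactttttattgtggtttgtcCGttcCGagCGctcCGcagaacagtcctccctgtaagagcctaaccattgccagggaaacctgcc
HOXB1: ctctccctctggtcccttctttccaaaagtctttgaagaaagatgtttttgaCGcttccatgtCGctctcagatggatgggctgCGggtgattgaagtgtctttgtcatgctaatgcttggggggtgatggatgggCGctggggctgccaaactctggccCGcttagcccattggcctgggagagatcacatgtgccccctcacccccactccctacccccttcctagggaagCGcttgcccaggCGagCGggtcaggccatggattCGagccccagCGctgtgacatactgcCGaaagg
HOXD1: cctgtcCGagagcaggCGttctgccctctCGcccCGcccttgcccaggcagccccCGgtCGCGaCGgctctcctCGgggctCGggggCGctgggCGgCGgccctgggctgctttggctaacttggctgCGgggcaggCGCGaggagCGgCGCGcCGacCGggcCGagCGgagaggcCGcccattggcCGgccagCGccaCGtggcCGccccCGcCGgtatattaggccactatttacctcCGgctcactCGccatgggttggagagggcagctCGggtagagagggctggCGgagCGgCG
MEIS2: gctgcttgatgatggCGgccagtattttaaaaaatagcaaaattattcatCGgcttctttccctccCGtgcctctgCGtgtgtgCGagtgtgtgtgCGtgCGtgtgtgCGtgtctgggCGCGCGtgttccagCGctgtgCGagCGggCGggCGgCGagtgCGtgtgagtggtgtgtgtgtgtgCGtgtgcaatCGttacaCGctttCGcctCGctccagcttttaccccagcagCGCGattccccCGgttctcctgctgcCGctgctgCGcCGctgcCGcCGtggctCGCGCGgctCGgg

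Most HOX probe sets were dim in both lines. Of the 44, 35 (79.5%) lay below the array median on all 8 arrays and 7 (15.9%) above it on all 8. Over all probe sets the shares were 43.2% and 43.0%. As a guide to background, 25 probe sets of 17 genes that belong to other tissues, such as liver, heart and testis, lay below on all 8 arrays in 64.0% and above in 16.0%. The median distance of a probe set's mean from the array median was -0.80 for HOX genes, -0.59 for genes of other tissues and 0.02 for all probe sets. Without detection calls, a probe set below the array median on every array of a group could not be told from background there. These are bulk cultures, in which fewer cells with a transcript and less of it per cell cannot be told apart.

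The 7 probe sets above every array median belonged to HOXB1, HOXB4, HOXB5, HOXC4, HOXC5, HOXC11 and HOXD1, so they came from 3 clusters. HOXC4, HOXC5, HOXB4 and HOXC11 have 1 probe set each. HOXB1, HOXB5 and HOXD1 each had a further probe set below all 8 medians, and the probe sets of these 3 genes thus disagreed. By position, 2 of 8 anterior, 4 of 17 central and 1 of 19 posterior probe sets lay above all 8 medians. Against a stricter limit, the 95th percentile of the genes of other tissues on each array (7.80 to 8.01), only HOXB4 and HOXC11 were above on all 8 arrays and 39 of 44 were below on all 8. This limit rests on 25 probe sets. The highest of their signals, 9.62 for SFTPC, exceeded the highest HOX signal, 8.68 for HOXC4. Passing the limit therefore does not show that a signal is clear of background. Of the 28 genes, 19 had every probe set below all 8 medians.

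**Figure D1:**
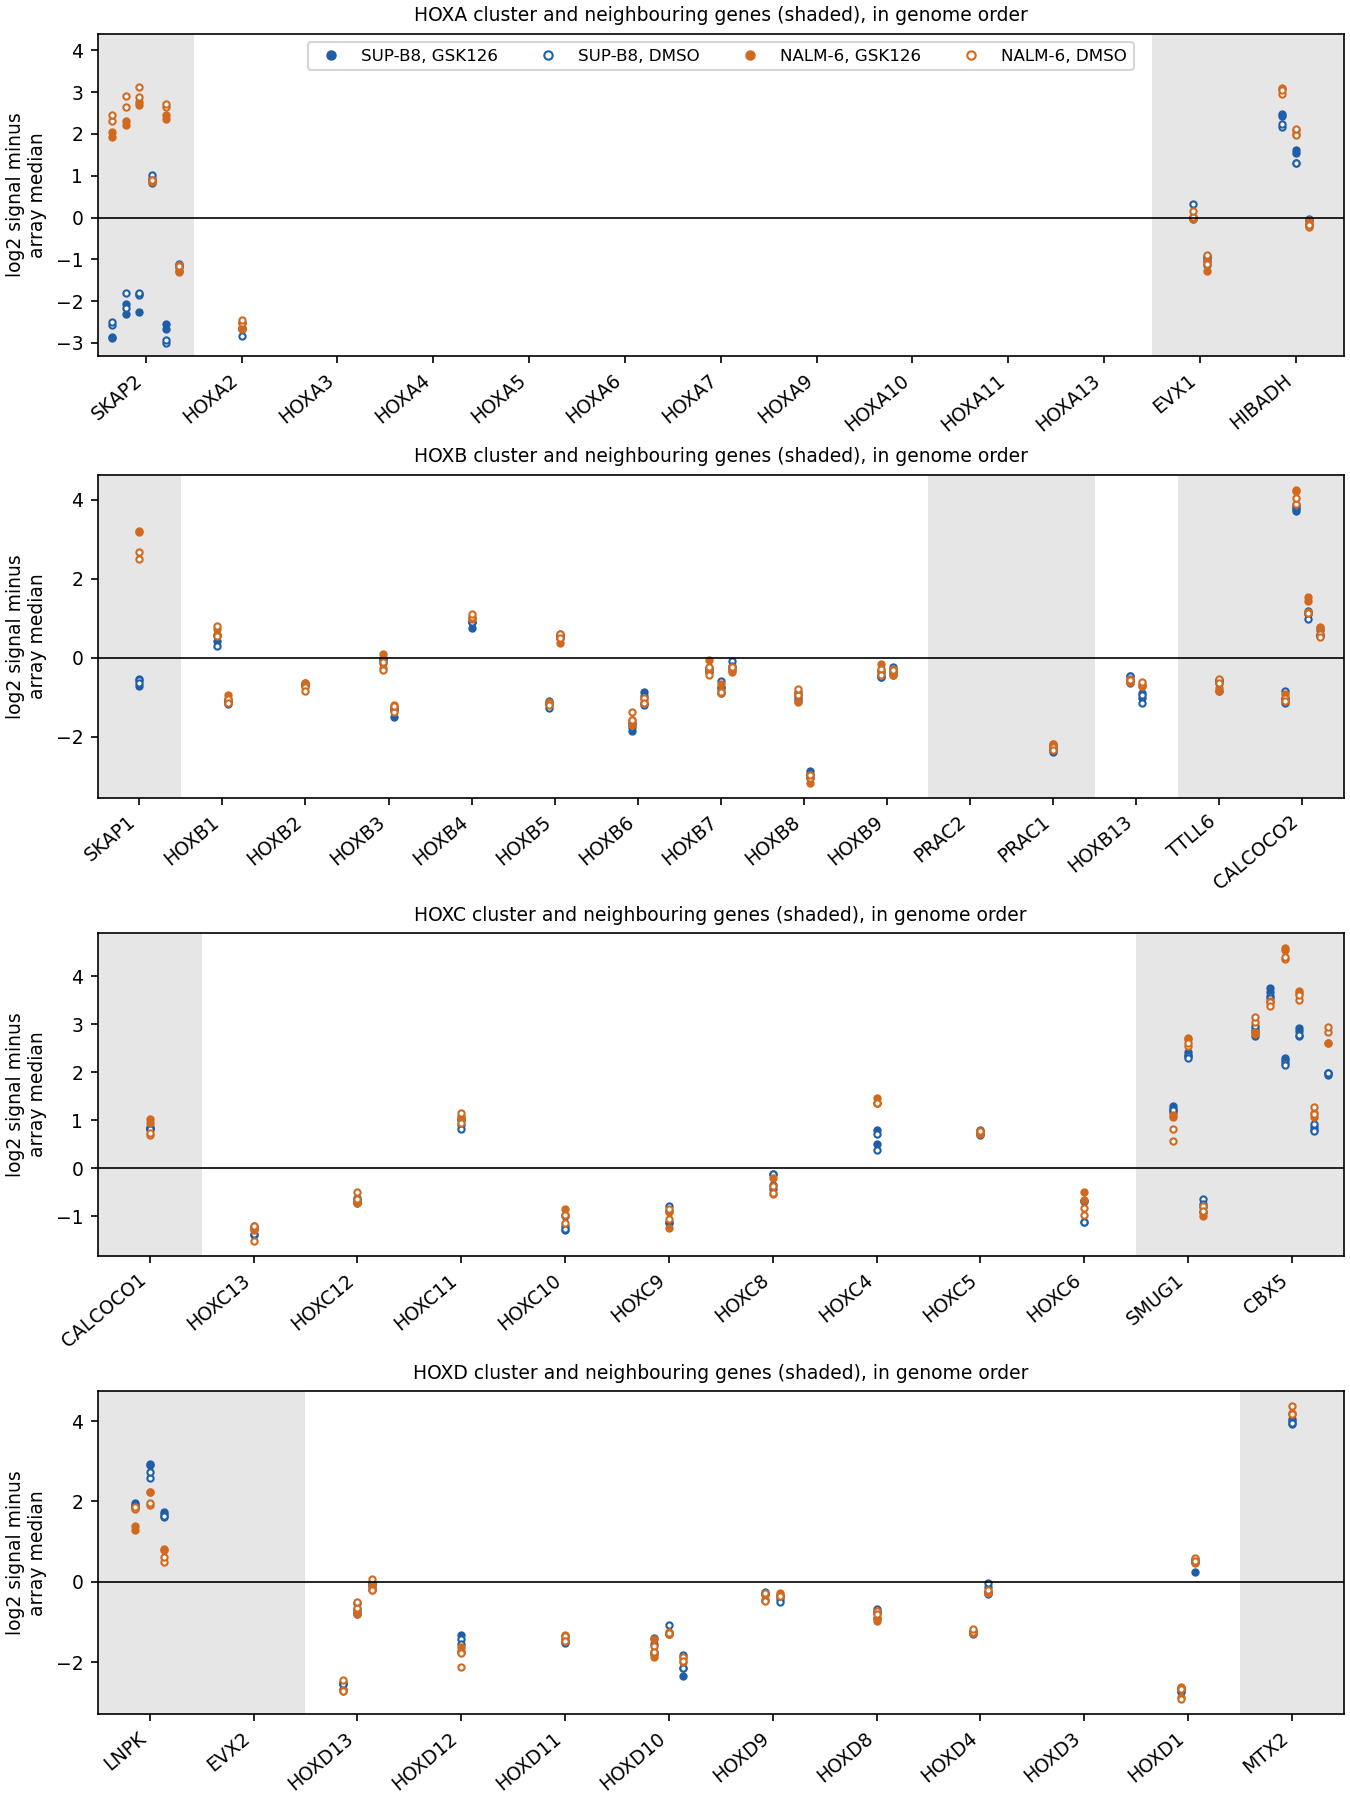
Log2 signal minus the median of the same array (vertical axis) for each probe set of the HOX genes and of the genes beside each cluster (shaded), which run along the horizontal axis in the order of their annotated starts in the RefSeq table. The panel titles call this genome order, but it follows 1 start per gene. The start that HOXC4 and HOXC5 share sets them before HOXC6, which need not be the order of the gene bodies. Each point is 1 array, filled for GSK126 and open for DMSO, blue for SUP-B8 and orange for NALM-6, genes without points were not analysed here, and most HOX points lie below 0 while several neighbours lie far above it.

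The plot of the clusters in genome order sets the HOX genes beside their neighbours. Of 32 neighbour probe sets, 19 (59.4%) lay above the median on all 8 arrays and 7 (21.9%) below it on all 8, against 43.0% and 43.2% of all probe sets. CALCOCO2 beside HOXB, MTX2 and LNPK beside HOXD and CBX5 beside HOXC each had probe sets above all 8 medians, whereas SKAP1 beside HOXB1 lay below the medians on every SUP-B8 array.

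HOXC4, a homeodomain factor of the HOXC cluster, lay above the median on all 8 arrays. Its log2 signals were 7.68 and 7.99 on SUP-B8 arrays with GSK126 and 7.59 and 7.91 on SUP-B8 arrays with DMSO. On NALM-6 arrays they were 8.68 and 8.59 with GSK126 and 8.56 and 8.54 with DMSO. The NALM-6 arrays were all higher than the SUP-B8 arrays, and within each line the treatments were close.

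HOXC5, whose annotated start is that of HOXC4, showed no such split. It had 7.88 and 7.98 on SUP-B8 arrays with GSK126 and 8.01 and 7.92 on those with DMSO. On NALM-6 arrays it had 7.93 and 8.01 with GSK126 and 7.97 and 7.95 with DMSO, so the signals of all 4 groups overlapped.

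HOXC11, a posterior gene of the HOXC cluster, had 8.08 and 8.20 on SUP-B8 arrays with GSK126, 8.24 and 8.01 on those with DMSO, 8.31 and 8.29 on NALM-6 arrays with GSK126 and 8.35 and 8.13 on those with DMSO. HOXB4, known for expanding blood stem cells, had 7.93 and 8.10 on SUP-B8 arrays with GSK126, 8.12 and 8.10 on those with DMSO, 8.19 and 8.24 on NALM-6 arrays with GSK126 and 8.25 and 8.28 on those with DMSO. The signals of HOXB4 were slightly lower on all SUP-B8 arrays than on all NALM-6 arrays, and those of HOXC11 overlapped between the lines. HOXB1, a factor of hindbrain patterning, ranged from 7.50 to 8.0 over the 8 arrays, HOXB5, a marker of long-term blood stem cells in mouse, from 7.62 to 7.82 (205601_s_at), and HOXD1 from 7.44 to 7.80 (205975_s_at).

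In SUP-B8 none of 44 HOX probe sets was called with GSK126 at an adjusted p under 0.05 (limma, Benjamini-Hochberg over 54613 probe sets), while 0.331% of all probe sets were, 181 in number, with 0.315% higher and 0.0165% lower. At an unadjusted p under 0.05 there were 6 of 44 (13.6%), against 11.3% of all probe sets. The differences, GSK126 minus DMSO, ran from -0.29 to 0.42 with a median of -0.03, against -0.02 for all probe sets. GSK126 and DMSO arrays did not overlap for 14 probe sets, 5 higher and 9 lower, a share of 31.8% where 42.5% of all probe sets did not overlap, 17.2% higher and 25.3% lower. The median size of a difference, its sign ignored, was 0.09 for HOX and 0.08 for all probe sets.

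In NALM-6, where GSK126 was followed by far more calls, 1 of 44 HOX probe sets was called, HOXC6, and it was higher. Over all probe sets 20.6% were called, 10.5% higher and 10.1% lower. Of the 17 genes of other tissues, each at its probe set of highest mean, 0 were called, beside 21.6% of all genes taken so. GSK126 and DMSO arrays did not overlap for 14 HOX probe sets (31.8%), 6 higher and 8 lower, against 56.8% of all probe sets, 29.7% higher and 27.1% lower. Differences ran from -0.14 to 0.35, and their median size was 0.08, against 0.11 for all probe sets.

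HOXC6 (206858_s_at), a central gene of the HOXC cluster with a part in thoracic patterning, lay below the median on all 8 arrays. On SUP-B8 arrays it had log2 signals of 6.51 and 6.50 with GSK126, against 6.09 and 6.08 with DMSO. On NALM-6 arrays it had 6.54 and 6.74 with GSK126, against 6.38 and 6.21 with DMSO. In both lines the GSK126 arrays were higher than the DMSO arrays with no overlap. The call passed in NALM-6 (limma, adjusted p = 0.020) and not in SUP-B8 (limma, adjusted p = 0.111), and the difference of the responses was not called (adjusted p = 0.789). No size is given, since neither group was shown to be above background. The NALM-6 call was lost without NALM-6 GSK126 replicate 2 (adjusted p = 0.145) or without NALM-6 DMSO replicate 2 (adjusted p = 0.131).

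The 7 probe sets above the array medians gave no called response in either line. For HOXC4 the response was 0.09 ± 0.12 (SE, 95% interval -0.19 to 0.37) in SUP-B8 and 0.09 ± 0.12 (SE, interval -0.20 to 0.37) in NALM-6. For HOXC5 it was -0.03 ± 0.07 (interval -0.19 to 0.13) in SUP-B8 and 0.01 ± 0.07 (interval -0.15 to 0.17) in NALM-6. HOXB4 responded by -0.09 ± 0.07 (interval -0.26 to 0.07) in SUP-B8 and by -0.05 ± 0.07 (interval -0.22 to 0.12) in NALM-6. Over the 44 probe sets, every 95% interval lay within 1 log2 unit of 0 in both lines, and 40 in SUP-B8 and 42 in NALM-6 lay within 0.5 of 0. The widest reach was 0.62 for HOXC6 in SUP-B8 and 0.66 for HOXD12 in NALM-6. For probe sets near background such intervals bound the measured signal, not the transcript.

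**Figure D2:**
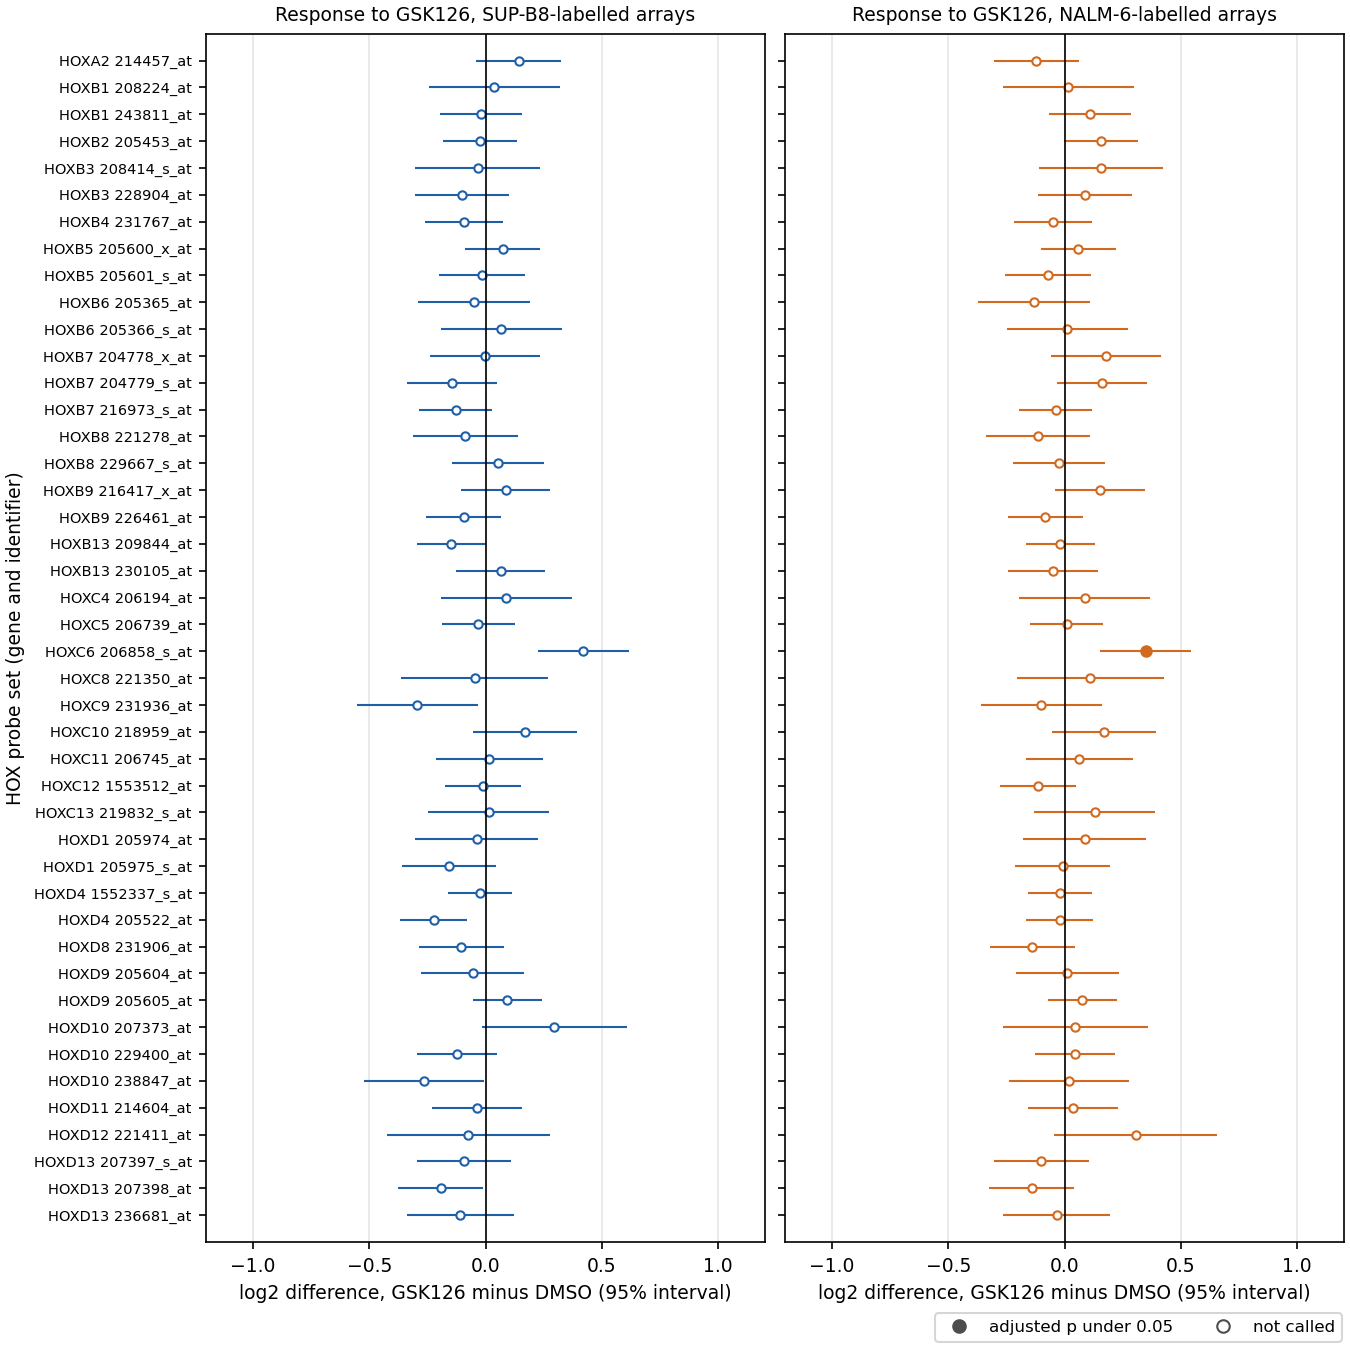
Log2 difference between GSK126 and DMSO arrays with its 95% interval from limma (horizontal axis) for each of the 44 HOX probe sets (vertical axis), with arrays labelled SUP-B8 on the left (blue) and NALM-6 on the right (orange). The filled point is HOXC6 in NALM-6, the probe set with an adjusted p under 0.05, and all other points are open.

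The responses of the lines were set against each other in the same model. None of 44 HOX probe sets had a called difference of responses (limma, adjusted p at least 0.157). At an unadjusted p under 0.05 there were 2 (4.55%), against 24% of all probe sets. Of all probe sets 10.9% were called, 5.3% with a higher and 5.63% with a lower response in SUP-B8. A difference between the responses was thus not detectable for any HOX probe set with 2 arrays a group.

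The lines were compared under each treatment, on different arrays. Under GSK126 3 HOX probe sets were called, all lower in SUP-B8, a share of 6.82% beside 43% of all probe sets (21.4% higher and 21.6% lower). Under DMSO 1 was higher and 3 were lower in SUP-B8, a share of 9.09% beside 43.6% of all probe sets (22.9% higher and 20.7% lower). The 17 genes of other tissues, each at its probe set of highest mean, also had few calls. These were 0 under GSK126 and 1 (5.88%) under DMSO, beside 46.4% and 46.5% of all genes taken so. HOXC4 and HOXB13 were called under both treatments, HOXA2 and HOXD12 under DMSO and HOXD10 under GSK126. The groups did not overlap for 20 HOX probe sets (45.5%) under DMSO, 9 higher and 11 lower in SUP-B8, against 67% of all probe sets, 35% higher and 32% lower. Under GSK126 17 (38.6%) did not overlap, all lower in SUP-B8, against 70.4% of all probe sets, 32.3% higher and 38.1% lower. The share that was lower was thus near that of all probe sets. The medians of the GSK126 arrays were 7.19 and 7.20 in SUP-B8 and 7.22 and 7.24 in NALM-6, and the part of this offset was not tested.

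HOXC4 was the called probe set that lay above the array medians on every array. It averaged 7.84 ± 0.22 on SUP-B8 arrays and 8.64 ± 0.06 on NALM-6 arrays under GSK126, and 7.75 ± 0.23 on SUP-B8 arrays and 8.55 ± 0.01 on NALM-6 arrays under DMSO (SD, n = 2 each). The difference, SUP-B8 minus NALM-6, was -0.80 ± 0.12 under GSK126 (SE, 95% interval -1.08 to -0.52, limma adjusted p = 0.00061) and -0.80 ± 0.12 under DMSO (interval -1.08 to -0.52, limma adjusted p = 0.00055). The difference between these 2 values was 0.00 (95% interval -0.40 to 0.40). HOXC4 exceeded the 95th percentile of genes of other tissues on 2 of 4 SUP-B8 arrays and on 4 of 4 NALM-6 arrays, so by that stricter limit its SUP-B8 signal was not clear of background, and the values are differences of measured signal. Leaving out 1 array moved the value between -0.95 and -0.64 under GSK126 and between -0.96 and -0.64 under DMSO, with every call kept. For HOXC5 the line difference was -0.04 (interval -0.19 to 0.12) under GSK126 and 0.00 (interval -0.15 to 0.16) under DMSO. For HOXB4 it was -0.20 (interval -0.37 to -0.03, limma adjusted p = 0.055, called under 4 alternatives) under GSK126 and -0.16 (interval -0.32 to 0.01, limma adjusted p = 0.122) under DMSO.

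The other called probe sets lay below the median on all 8 arrays, so only signals and adjusted p-values (limma) are given. HOXB13 (230105_at), a posterior gene of prostate and hindgut, had 6.29 and 6.17 on SUP-B8 arrays with GSK126, against 6.50 and 6.52 on NALM-6 arrays with GSK126 (adjusted p = 0.025). Under DMSO it had 6.27 and 6.05 on SUP-B8 arrays, against 6.54 and 6.57 on NALM-6 arrays (adjusted p = 0.0041). All its SUP-B8 signals were lower than its NALM-6 signals, whereas its other probe set, 209844_at, overlapped between the lines under GSK126 and was higher in SUP-B8 under DMSO without being called (adjusted p = 0.231). HOXA2, which patterns the hindbrain, had 4.36 and 4.55 on SUP-B8 arrays with DMSO, against 4.68 and 4.72 on NALM-6 arrays with DMSO (adjusted p = 0.040). HOXD12, a posterior gene of limb patterning, had 5.80 and 5.65 on SUP-B8 arrays with DMSO, against 5.44 and 5.06 on NALM-6 arrays with DMSO (adjusted p = 0.032). HOXD10 (238847_at), also of limb patterning, had 5.04 and 4.87 on SUP-B8 arrays with GSK126, against 5.23 and 5.36 on NALM-6 arrays with GSK126 (adjusted p = 0.040), and its other 2 probe sets were not called. The call of HOXB13 under DMSO was lost with the mean of the gene's probe sets (adjusted p = 0.060). The call of HOXB13 under GSK126 was lost without SUP-B8 GSK126 replicate 2 (adjusted p = 0.144), NALM-6 GSK126 replicate 1 (0.075) or NALM-6 GSK126 replicate 2 (0.102). That of HOXD12 was lost without SUP-B8 DMSO replicate 1 (adjusted p = 0.151), SUP-B8 DMSO replicate 2 (0.063) or NALM-6 DMSO replicate 2 (0.224). That of HOXA2 was lost under 4 other settings of the fit (0.055 to 0.066) and without SUP-B8 DMSO replicate 1 (adjusted p = 0.222) or any 1 of the 4 NALM-6 arrays (0.059 to 0.148). That of HOXD10 was lost with the mean of the gene's probe sets (adjusted p = 0.508), with renewed quantile normalization (0.084), with centring of the arrays (0.051), and without SUP-B8 GSK126 replicate 2 (adjusted p = 0.202) or any 1 of the 4 NALM-6 arrays (0.054 to 0.189). Cell type markers, each gene at its probe set of highest mean, were also called between the lines, in both directions. Among all genes taken so, 46.4% were called under GSK126 and 46.5% under DMSO. Of 5 B-lineage genes, 1 was higher and 3 were lower in SUP-B8 under GSK126, and 2 were higher and 3 lower under DMSO. Of 5 myeloid genes, 2 were higher and 1 lower under GSK126, and 1 was higher under DMSO. Of 3 erythroid genes 2 were lower under GSK126 and 0 were called under DMSO, and of 6 fibroblast genes 0 were called under GSK126 and 1 was higher under DMSO. None of 5 T-cell and 5 epithelial genes was called in either contrast. Their part in the HOX differences was not tested.

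**Figure D3:**
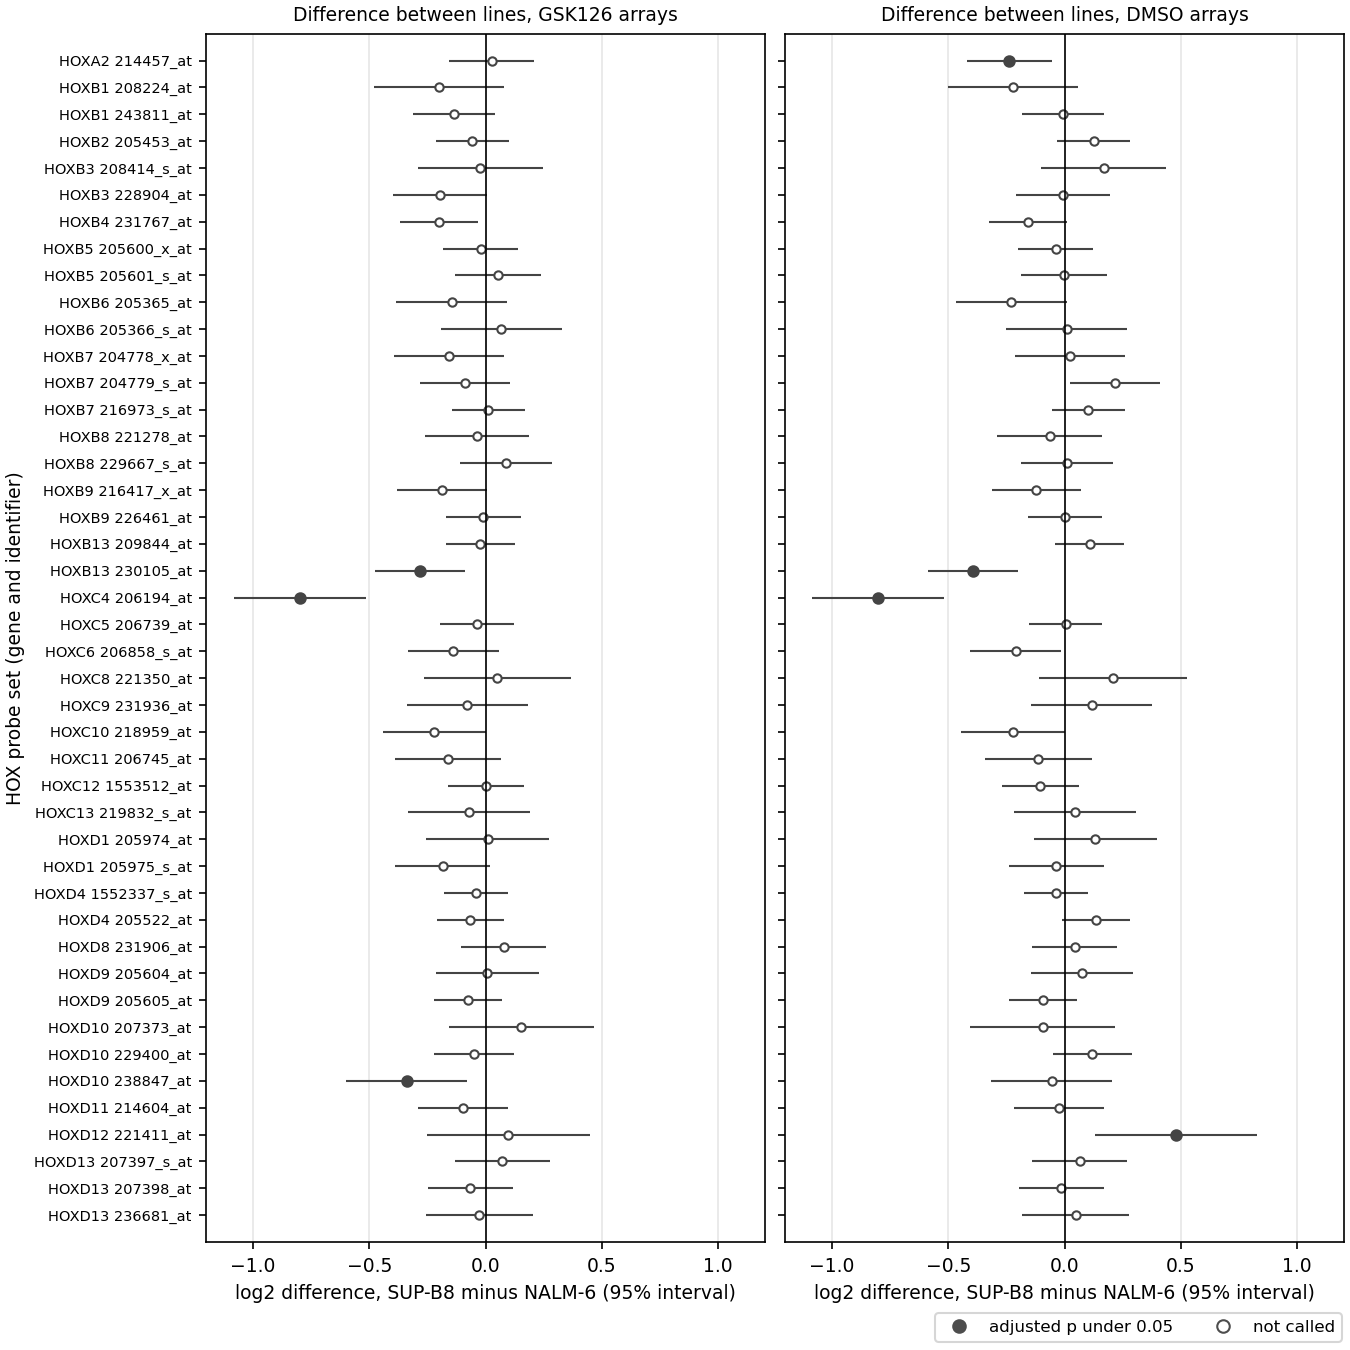
Log2 difference between arrays labelled SUP-B8 and NALM-6 with its 95% interval from limma (horizontal axis) for each of the 44 HOX probe sets (vertical axis), under GSK126 on the left and under DMSO on the right. Filled points have an adjusted p under 0.05, and HOXC4 stands apart at -0.80 in both panels.

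The transcripts of the proteins that pair with HOX factors were measured next. Of 8 measured TALE cofactor genes (PBX2, PBX3, PBX4, MEIS1, MEIS2, MEIS3, PKNOX1 and PKNOX2), each taken at its probe set of highest mean, 1 was higher and 3 were lower in SUP-B8 under GSK126, and likewise under DMSO. Among all genes taken so, 46.4% were called under GSK126 and 46.5% under DMSO. This list and those below were written for this comparison with earlier results of the arrays known.

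MEIS2, a TALE homeodomain partner of HOX and PBX proteins, had log2 signals of 6.68 and 6.72 on SUP-B8 arrays with GSK126 and 5.94 and 5.88 on those with DMSO, all below the medians. On NALM-6 arrays it had 10.24 and 10.29 with GSK126 and 10.31 and 10.19 with DMSO. It was lower in SUP-B8 by at least 3.07 under GSK126 and by at least 3.04 under DMSO, the distances from the NALM-6 mean to the array medians. GSK126 and DMSO arrays of SUP-B8 did not overlap and the response was called (limma, adjusted p = 0.0055), but both groups lay below the medians and the call was lost without SUP-B8 GSK126 replicate 2 (adjusted p = 0.051) or SUP-B8 DMSO replicate 2 (adjusted p = 0.059). MEIS2 was the called cofactor in that response, 1 of 8 beside 0.46% of all genes.

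PBX3, which binds DNA with HOX proteins and is known with MEIS1 and HOXA9 in leukaemia, went the other way. It averaged 12.33 ± 0.04 on SUP-B8 arrays with GSK126 and 9.13 ± 0.01 on NALM-6 arrays with GSK126 (SD, n = 2 each), and was higher in SUP-B8 by 3.20 ± 0.06 (SE, limma, adjusted p = 1.31e-09). Under DMSO it was higher by 2.86 ± 0.06 (adjusted p = 2.26e-09). PBX4, a relative of PBX3, was lower in SUP-B8, with a difference of -1.73 ± 0.10 under GSK126 and of -2.44 ± 0.10 under DMSO (SE, limma, adjusted p = 7.06e-07 and 6.50e-08). It was lower with GSK126 in NALM-6, at 9.43 and 9.52 with GSK126 against 9.97 and 10.11 with DMSO (a response of -0.57 ± 0.10, limma adjusted p = 0.0033), the 1 cofactor called there beside 21.6% of all genes. MEIS1, the best known partner of HOXA9, lay below the median on all 8 arrays. It had 5.75 and 5.17 on SUP-B8 arrays with GSK126, 5.29 and 5.36 on those with DMSO, 7.10 and 6.81 on NALM-6 arrays with GSK126 and 6.27 and 6.85 on those with DMSO (204069_at), with both line contrasts called (limma, adjusted p = 0.00042 and 0.0013).

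**Figure D4:**
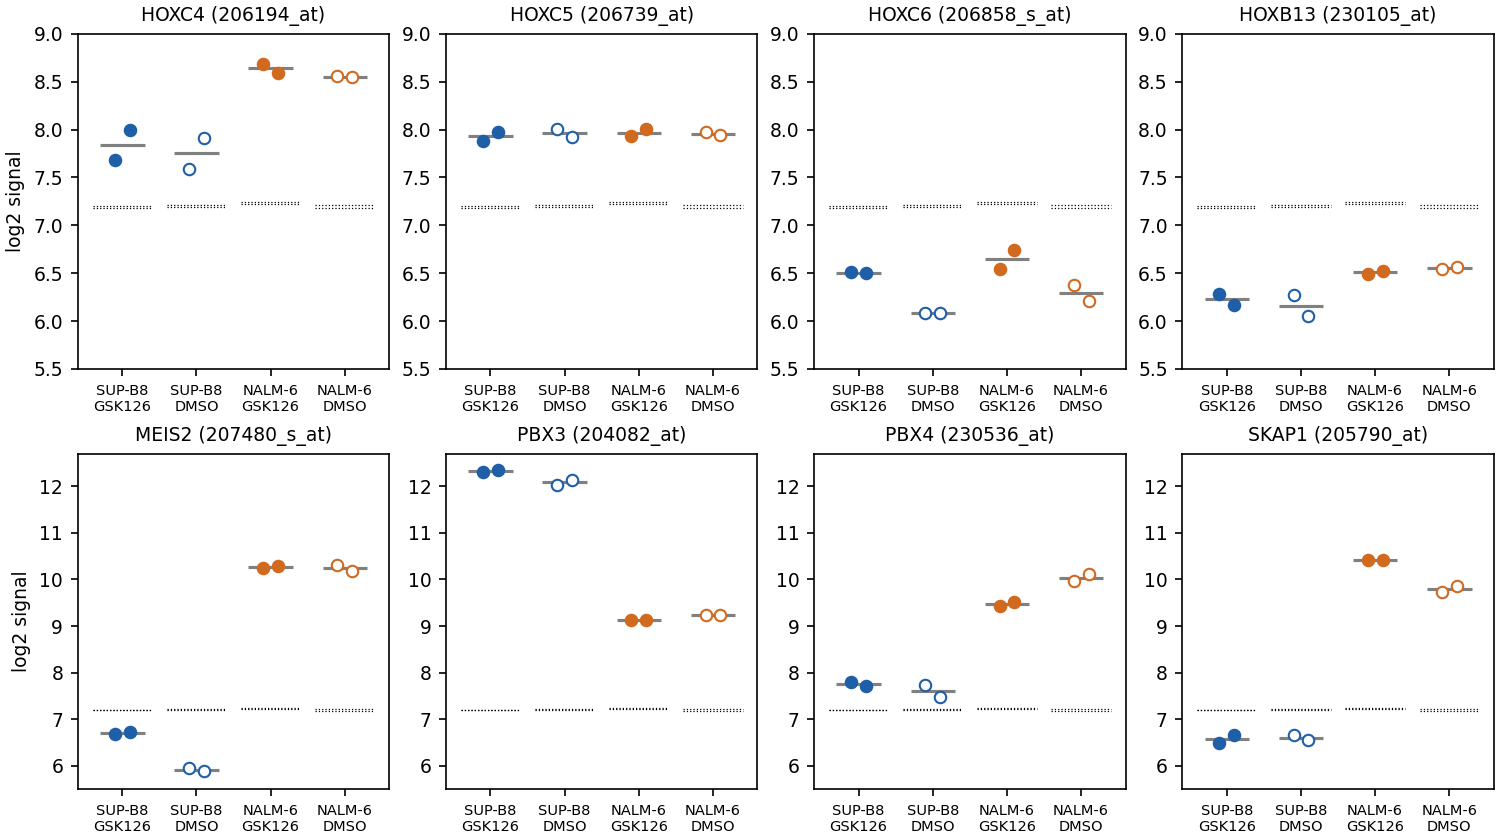
Log2 signal on each array (vertical axis) of the HOX probe sets of HOXC4, HOXC5, HOXC6 and HOXB13 (upper row) and of the HOX partners MEIS2, PBX3 and PBX4 and the HOXB neighbour SKAP1 (lower row), by line and treatment. Points are arrays, grey bars group means and dotted lines the medians of the same arrays, and the rows have different vertical scales.

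The genes that flank the clusters were counted in the same way. Of 12 measured neighbours, 2 were higher and 6 lower in SUP-B8 under GSK126, and 1 was higher and 4 lower under DMSO, beside the shares of all genes given above. SKAP1, an adaptor of lymphocyte signalling next to HOXB1 in the RefSeq table, had 6.48 and 6.66 on SUP-B8 arrays with GSK126 and 6.66 and 6.54 on those with DMSO. On NALM-6 arrays it had 10.42 and 10.42 with GSK126 and 9.72 and 9.86 with DMSO. It was lower in SUP-B8 by at least 3.23 under GSK126 and at least 2.59 under DMSO, and was higher with GSK126 in NALM-6 by 0.63 ± 0.08 (SE, limma, adjusted p = 0.00095).

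SKAP2, the related adaptor beside the HOXA cluster, had 4 of 6 probe sets below the medians on all SUP-B8 arrays (4.20 to 5.40) and above them on all NALM-6 arrays (9.18 to 10.31). Its other 2 probe sets did not split the lines, and 217035_at, the one of highest mean and therefore the one counted, was not called. HIBADH, on the far side of HOXA, differed by -0.67 under GSK126 and by -0.80 under DMSO, lower in SUP-B8. LNPK, beside HOXD, was higher by 0.65 under GSK126 and by 0.73 under DMSO. In the response of NALM-6, 4 of 12 neighbours were called, all higher (SKAP1, LNPK, CALCOCO2 and CALCOCO1), beside 21.6% of all genes. In that of SUP-B8 0 of 12 were, beside 0.46% of all genes. There 2 (16.7%) had an unadjusted p under 0.05, beside 11% of all genes. LNPK probe sets disagreed in NALM-6, with a response of 0.32 at 225718_at and of -0.46 at 225717_at. The LNPK call was lost with the mean of its probe sets (limma, adjusted p = 0.609) or without NALM-6 GSK126 replicate 2 (0.061), that of CALCOCO1 without NALM-6 GSK126 replicate 1 (0.062), and that of CALCOCO2 without NALM-6 GSK126 replicate 2 (0.073) or NALM-6 DMSO replicate 1 (0.064).

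Noncoding RNAs of the clusters resembled the HOX genes. Of 25 listed, 12 had 24 probe sets, of which 21 lay below and 2 above the median on all 8 arrays, those 2 being probe sets of HOTTIP and HOXD-AS2. HOTAIR, a long RNA of the HOXC cluster known for its link to PRC2, had 3.76 to 4.13. None of the 12 was called with GSK126 in either line, beside 0.46% of all genes in SUP-B8 and 21.6% in NALM-6. At an unadjusted p under 0.05 there was 1 in SUP-B8, beside 11% of all genes, and 0 in NALM-6, beside 32%. Between the lines 0 were called under DMSO, beside 46.5% of all genes. There 3 had an unadjusted p under 0.05, beside 51.1% of all genes. Under GSK126 the probe sets of MIR10A and HOXD-AS2 were called, both lower in SUP-B8 (limma, adjusted p = 0.015 and 0.040), 2 of 12 beside 46.4% of all genes. The MIR10A probe set lost its call with an intensity-trended robust prior (adjusted p = 0.051), without SUP-B8 GSK126 replicate 1 (0.093) or without NALM-6 GSK126 replicate 1 (0.112). The HOXD-AS2 call was lost under 11 alternatives (0.051 to 0.218).

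Regulators that switch HOX clusters on were measured for all 18 listed genes. Under GSK126 5 were higher and 6 lower in SUP-B8, beside 46.4% of all genes called, and under DMSO 4 were higher and 7 lower, beside 46.5%. KMT2A, the methyltransferase that maintains HOX expression, was higher with GSK126 in NALM-6 by 0.36 ± 0.08 (226981_at, limma, adjusted p = 0.016), a call lost without either NALM-6 GSK126 array or NALM-6 DMSO replicate 1 (0.068 to 0.090). Further KMT2A probe sets were called higher too, 212080_at by 0.51 among them. AFF1, a subunit of the super elongation complex and a fusion partner of KMT2A, had 11.08 and 10.98 on SUP-B8 arrays with GSK126 and 11.23 and 11.33 on those with DMSO (201924_at). On NALM-6 arrays AFF1 had 9.12 and 9.19 with GSK126 and 7.47 and 7.67 with DMSO, a response of 1.58 ± 0.08 (limma, adjusted p = 8.76e-06) that its other 2 probe sets, dimmer, did not show. In NALM-6, 4 of 18 were higher and 4 lower with GSK126, beside 21.6% of all genes called. In SUP-B8 0 of 18 were called, beside 0.46%, with 3 at an unadjusted p under 0.05, beside 11% of all genes. NUP98, a nucleoporin that fuses with HOX genes in leukaemia, differed with GSK126 in NALM-6 by -0.42 ± 0.08 (limma, adjusted p = 0.0046), and RBBP5, a core subunit of KMT2 complexes, by -0.36 ± 0.09 (adjusted p = 0.021), a call lost without either NALM-6 GSK126 array or NALM-6 DMSO replicate 2 (0.080 to 0.139). Between the lines KDM6A, which removes the Polycomb methyl mark, differed by -1.19 under GSK126 and -1.47 under DMSO, lower in SUP-B8. PSIP1, which tethers KMT2A complexes to chromatin, differed by -0.92 under GSK126 and by -1.10 under DMSO, also lower in SUP-B8. MLLT1, of the super elongation complex, was higher in SUP-B8 by 0.76 under GSK126 and by 1.09 under DMSO, and WDR5, a core subunit of KMT2 complexes, by 0.85 under GSK126 and by 0.61 under DMSO. CDX2 and CDX4, homeobox genes upstream of HOX in development, lay below the median on all 8 arrays, and CDX1 lay above it.

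Genes known as targets of HOXA9 and MEIS1 in myeloid leukaemia were well measured, and 10 of 11 differed between the lines under each treatment, 7 higher and 3 lower in SUP-B8, beside 46.4% of all genes called under GSK126 and 46.5% under DMSO. PIM1, a kinase, differed by -3.51 under GSK126 and by -4.02 under DMSO, lower in SUP-B8. CDK6, a cell cycle kinase, was higher by 2.18 under GSK126 and 2.48 under DMSO, and ERG, a blood transcription factor below the medians on NALM-6 arrays, by at least 1.34 under GSK126 and at least 1.42 under DMSO (211626_x_at). Across the alternatives, which include the mean of its probe sets, the measured ERG difference reached 3.48 under GSK126 and 3.72 under DMSO. In NALM-6 1 of the 11 rose with GSK126 and 5 fell, beside 21.6% of all genes called. ID2, an inhibitor of E proteins, fell in NALM-6 by 0.63 on the log2 scale (limma, adjusted p = 0.00024), with 12.03 and 11.93 with GSK126 against 12.58 and 12.63 with DMSO. In SUP-B8 ID2 was the 1 target of 11 called, beside 0.46% of all genes. It rose there by 0.56 ± 0.07 (limma, adjusted p = 0.019), with 10.76 and 10.79 with GSK126 against 10.20 and 10.23 with DMSO. The SUP-B8 call was lost when any 1 SUP-B8 array was left out (adjusted p 0.096 to 0.119). LMO2, a partner of blood transcription factors, fell in NALM-6 by 0.61, MYB, a regulator of progenitor growth, by 0.45 and PIM1 by 0.37 on the log2 scale. The PIM1 call was lost without NALM-6 GSK126 replicate 1 (limma, adjusted p = 0.074) or NALM-6 DMSO replicate 1 (0.066). No level of HOXA9 is given here and MEIS1 was below the medians, so these genes are described without reference to either factor.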

How the data were processed

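RNA of 8 cultures was measured on Affymetrix HG-U133 Plus 2.0 arrays. The deposited table holds 1 log2 value per probe set and array. The submitters' processing notes name MAS5 and RMA; neither their roles nor their versions are given in the sources used here. That the deposited unit is log2 follows from the range of the values, which were used as the authors had normalized them. Such normalization would hide a change shared by most transcripts. Groups were taken from the labels, and p-values rest on the labels calling replicates biological.

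Of 54675 probe sets, 41097 had 1 symbol in the platform annotation, 1801 several and 11777 none listed. Symbols were checked by gene identifier against RefSeq (GRCh38.p14), which changed 0. Probe sets with several symbols were left out, 3 of which named a HOX gene. Those with identifiers ending in _s_at or _x_at can match several transcripts. The 54613 probe sets other than 62 controls, dim ones included, were fitted in limma (version 3.58.1, under R version 4.3.3) with 1 mean per group over 8 arrays, 4 residual degrees of freedom, moderated variances and 5 contrasts. P-values were adjusted by Benjamini-Hochberg over all 54613, and called means an adjusted p under 0.05. For 2 arrays against 2 the smallest two-sided p of an exact permutation test is 0.333, and calls therefore rest on limma's model. Where 1 group lay below the array medians, the distance from the medians to the other group's mean is given, as a lower bound. Errors are SE from limma or SD with n = 2, so precision is limited by the number of arrays. Other lists were counted with 1 probe set per gene, that of highest mean.

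The members and lists were chosen with earlier results of these data known. HOX probe sets were named if above the median on every array of a group or called in a contrast, and up to 4 called genes of largest difference per contrast from each other list. HOTAIR, HOTTIP, CDX1, CDX2, CDX4 and the neighbours given only as above the medians were named outside this rule once their values were known. The alternatives were a filter on dim probe sets, the probe set per gene, renewed quantile normalization, centring, another prior for the variances, fits of only the arrays compared, a block for replicate number and the omission of each array. Tables were prepared with Python version 3.11.15 and pandas version 2.3.3, and figures with matplotlib version 3.10.9.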

Additional observations from a re-analysis of the deposited data

Results flagged for a closer look

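No HOX probe set had a called difference between the response of SUP-B8 and that of NALM-6, but 3 of 8 HOX partners, 2 of 12 neighbours, 1 of 18 activators and 5 of 11 target genes did, by the interaction contrast of limma (11.5% of all genes were called). The values are SUP-B8 response minus NALM-6 response on the log2 scale. Among HOX partners the difference was 0.77 for MEIS2, 0.71 for PBX4 and 0.34 for PBX3. Beside the clusters it was -0.66 for SKAP1 and -0.44 for CALCOCO2. MEIS2 and SKAP1 lay below the medians on all SUP-B8 arrays, so their values are differences of measured signal that is not shown to be above background in SUP-B8, and they give no size for the transcripts. Among the activators it was -1.83 for AFF1. For the target genes it was 1.19 for ID2, 0.68 for LMO2, 0.51 for PIM1, 0.46 for MYB and 0.45 for BCL2. The call of PBX3 was lost with the replicate block and without any 1 of the 8 arrays, and that of MYB without NALM-6 GSK126 replicate 1. CALCOCO2 lost its call in 6 and PIM1 in 4 of the 8 omissions of 1 array, and CALCOCO2 lost it with the mean of its probe sets too. For BCL2 the alternatives were not examined. The call of LMO2 was lost with the mean of its probe sets (adjusted p = 0.250).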

How the results depend on the processing

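HOXC4 was called lower in SUP-B8 in both line contrasts under every alternative, with adjusted p of 0.0062 or smaller (limma). No called result changed direction, but values near 0 that were not called did: leaving out 1 array put the HOXC4 response in SUP-B8 (0.09) between -0.07 and 0.25, the difference of HOXC4 responses (0.00) between -0.16 and 0.16, and that of HOXC6 as low as -0.03. The number of HOX probe sets above the limit on all arrays of a line was 7 in SUP-B8 and 7 in NALM-6 against the array medians. It was 3 and 3 against the 95th percentile of genes of other tissues, and 3 in SUP-B8 and 5 in NALM-6 against the 60th percentile of all probe sets. An intensity-trended robust prior gave 1 HOX call in the SUP-B8 response in place of 0 (HOXC6, adjusted p = 0.047). The filter on dim probe sets left 7 HOX probe sets, with 0 calls in place of 1 in the NALM-6 response, 1 in place of 4 between lines under DMSO and 2 in place of 3 under GSK126, since HOXC6 and most others were no longer tested. The 2 were HOXC4 and HOXB4, and HOXB4 was also called under GSK126 with 1 probe set per gene, with probe sets averaged per gene and without SUP-B8 GSK126 replicate 2. Leaving out 1 array gave 0 to 0 calls in the SUP-B8 response, 0 to 1 in the NALM-6 response, 3 to 4 under DMSO and 1 to 5 under GSK126, the last being 1 without NALM-6 GSK126 replicate 1 and 5 without SUP-B8 GSK126 replicate 2. With the replicate block the counts were 0, 1, 0, 3 and 3 for the SUP-B8 response, the NALM-6 response, their difference, DMSO and GSK126. Same-numbered arrays deviated together at r = -0.155 to 0.082, so the numbers were not taken to pair the arrays. Over all probe sets the calls in the SUP-B8 response ran from 23 to 930 across alternatives. Centring each array on its median gave 4829 higher and 6238 lower calls in the NALM-6 response in place of 5709 and 5522, 12647 and 10526 between lines under GSK126 in place of 11702 and 11790, and 3421 and 2414 for the difference of responses in place of 2894 and 3075. Signals near background limit what can be said of the 35 HOX probe sets below all medians.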
